A study of Mus musculus with 6 samples.

Results

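Fc receptors are the cell surface proteins through which leukocytes bind antibody, and several of them signal through small partner chains that carry an immunoreceptor tyrosine-based activation motif (ITAM). The 9 genes described here are Fcer1g and Tyrobp (the ITAM adaptors), Syk (the kinase that docks on phosphorylated ITAMs), Fcgr1, Fcgr3 and Fcgr4 (activating IgG receptors), Fcgr2b (the inhibitory IgG receptor), and Fcer1a and Ms4a2 (the alpha and beta chains of the high-affinity IgE receptor). They were chosen by name with their log2 differences between Foxa2-/- and control lungs already known, and each was taken from all probe sets annotated to that gene alone, 18 of 45037 probe sets and 9 of 18193 genes. For this reason every Foxa2-/- against control value of the 9 genes is a description, and no test of it is offered as support.

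The arrays hold whole-lung RNA at postnatal day 15 from 3 Foxa2-/- lungs and 3 lungs labelled wildtype control, described by the submitters as littermates. Both groups carry the same strain label, SPC(+)Cre(-) with doxycycline (Dox) from embryonic day 6.5 to 12.5, and this label goes against the genotype label of the Foxa2-/- samples. Neither the cells in which Foxa2 was deleted nor the promoter that drove the deletion is spelled out, and 3 arrays a group limit the precision. Foxa2, the forkhead factor named in the genotype, read 7.72, 5.38 and 5.13 log2 units in Foxa2-/- replicates 1 to 3, against 10.28, 10.56 and 10.28 in control replicates 1 to 3, so Foxa2-/- replicate 1 kept the most signal. Control replicate 2 and Foxa2-/- replicates 2 and 3 share the first number of their sample titles, whose meaning is not given, and values within that number are given for each gene. The 3-prime minus 5-prime signal of the Gapdh control probe sets, which follows RNA integrity, was 0.91 to 0.97 in Foxa2-/- lungs, against 1.06 to 1.23 in controls. The same measure for Actb was 0.43 to 0.47 in Foxa2-/- lungs, against 0.46 to 0.65 in controls, and overlapped. The part of either in the differences was not tested.

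As background, an IgG or IgE molecule bound to antigen draws Fc receptors together, a Src family kinase phosphorylates the ITAM tyrosines of the partner chain, and Syk binds there and passes the signal to phospholipase C, calcium and cytokine genes. Fcgr2b carries an inhibitory motif (ITIM) instead, which recruits the lipid phosphatase Inpp5d and damps the same signal. Macrophages, monocytes, neutrophils and natural killer (NK) cells carry different sets of the IgG receptors, B cells carry Fcgr2b, and mast cells and basophils carry the complete IgE receptor. Tyrobp serves many other receptors of myeloid and NK cells, among them Trem2.

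Signal of 6 of the 9 genes was higher in every Foxa2-/- lung than in every control: Fcgr2b, Fcgr3, Fcer1g, Tyrobp, Fcgr4 and Syk. That pattern was seen in 10.8% of all 18193 genes, and the opposite one in none of the 9 and in 8.73% of all genes. The difference was at least 1 log2 unit in 5 of the 9, where 2.56% of all genes were that much higher in Foxa2-/- lungs. Fcgr1 overlapped between the groups, and Fcer1a and Ms4a2 were near the floor of the arrays in both. In the fit over all genes (limma, Benjamini-Hochberg adjusted p under 0.05), 3 of the 9 passed, all of them higher in Foxa2-/- lungs (Fcer1g, Fcgr3 and Tyrobp), where 0.473% of all genes passed in that direction. Because the genes were picked with this contrast known, neither share is read as evidence about them. The median difference was 1.00 log2 unit over the 9 genes and 0.01 over all genes. Without any single array other than Foxa2-/- replicate 1, none of the 9 passed (6 had an unadjusted p under 0.05 each time), while the median difference stayed between 0.95 and 1.11 over these 5 omissions. Without Foxa2-/- replicate 1, 4 of the 9 passed and the median was 1.07.

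**Figure D1:**
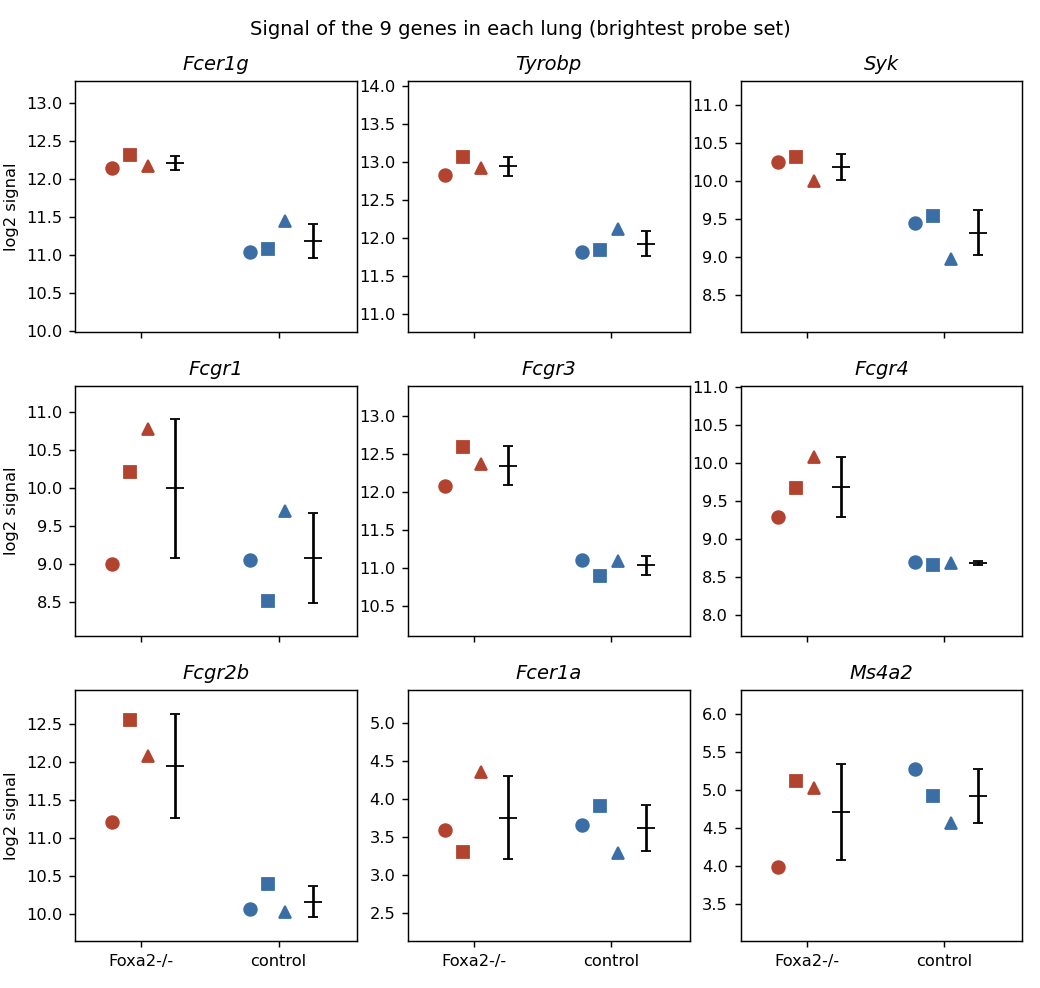
Signal on the log2 scale (vertical axis, a span of equal size in each panel) of the brightest probe set of each gene, with Foxa2-/- lungs in red at the left and control lungs in blue at the right; circles, squares and triangles are replicates 1, 2 and 3, and the black bars give mean ± SD (n = 3). The groups are apart for Fcer1g, Tyrobp, Syk, Fcgr3, Fcgr4 and Fcgr2b, and overlap for Fcgr1, Fcer1a and Ms4a2.

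Fcer1g encodes the FcR gamma chain, the ITAM adaptor shared by the activating IgG receptors, the IgE receptor and several lectins. It read 12.15, 12.31 and 12.18 in Foxa2-/- lungs, against 11.04, 11.08 and 11.44 in controls. The 3 Foxa2-/- arrays lay within a narrow band above all controls, and control replicate 3 was the highest control. Its difference was 1.03 log2 units (SE 0.14), 2.04-fold, and 1.17 within the shared title number. RefSeq (GRCm38.p6) places the Fcer1g promoter window, from 250 bases before to 50 bases after the start of the gene, at chr1:171234300-171234599 on the minus strand, shown because Fcer1g sits close to the IgG receptor genes described next.
Fcer1g promoter: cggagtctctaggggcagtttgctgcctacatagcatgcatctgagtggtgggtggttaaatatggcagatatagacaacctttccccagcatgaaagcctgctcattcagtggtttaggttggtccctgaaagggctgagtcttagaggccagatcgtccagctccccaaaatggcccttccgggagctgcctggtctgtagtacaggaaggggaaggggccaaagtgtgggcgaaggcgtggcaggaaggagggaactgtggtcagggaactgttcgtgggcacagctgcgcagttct

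Tyrobp, the other ITAM adaptor, read 12.84, 13.08 and 12.93 in Foxa2-/- lungs, against 11.83, 11.85 and 12.13 in controls. Within the Foxa2-/- group the order of the arrays was that of Fcer1g, and control replicate 3 was again the highest control. The difference was 1.01 (SE 0.13), 2.02-fold, and 1.15 within the shared title number. Within each array, the log2 signal of Fcer1g minus that of Tyrobp, with the control mean set to 0, was 0.06, -0.02 and -0.004 in Foxa2-/- lungs, against -0.04, -0.03 and 0.06 in controls. Both adaptors therefore differed between the groups by nearly the same amount, and their small deviations within a group ran together too (Pearson r = 0.965 over the deviations of the 6 arrays from their group means, which share hybridisation and normalization).

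Syk read 10.25, 10.32 and 10.002 in Foxa2-/- lungs, against 9.45, 9.54 and 8.98 in controls. Every Foxa2-/- array was above the controls, and replicate 3 was the lowest array in each group. The difference was 0.86 (SE 0.18), 1.82-fold, and 0.62 within the shared title number. All 4 Syk probe sets had the groups apart in the same direction, with differences of 0.86, 0.79, 0.68 and 0.40. The smallest belonged to the probe set that read 7.59, 7.38 and 7.29 in Foxa2-/- lungs, against 7.26, 6.93 and 6.86 in controls.

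Fcgr3, the activating IgG receptor of macrophages, NK cells and neutrophils, read 12.08, 12.60 and 12.37 in Foxa2-/- lungs, against 11.11, 10.90 and 11.10 in controls. The gap between the lowest Foxa2-/- array and the highest control, 0.97 log2 units, was the widest among the 9 genes. The difference was 1.31 (SE 0.16), 2.49-fold, and 1.59 within the shared title number. Fcgr4, an activating receptor of monocytes, macrophages and neutrophils in mice, read 9.29, 9.67 and 10.08 in Foxa2-/- lungs, against 8.70, 8.65 and 8.69 in controls. The controls spanned only a few hundredths of a unit, while Foxa2-/- arrays were spread out, and the difference was 1.00 (SE 0.20), 2.00-fold, and 1.22 within the shared title number.

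Fcgr1, the high-affinity IgG receptor of macrophages and monocytes, read 8.996, 10.21 and 10.78 in Foxa2-/- lungs, against 9.05, 8.51 and 9.69 in controls. Foxa2-/- replicate 1 lay at the level of control replicate 1 and below control replicate 3, so the groups overlapped. The difference was 0.91 (SE 0.50, 95% interval -0.29 to 2.11). It was 1.99 within the shared title number. It was 1.41 without Foxa2-/- replicate 1, but 0.52 without Foxa2-/- replicate 3 and 0.62 without control replicate 2. A dimmer Fcgr1 probe set read 6.20, 5.65 and 6.58 in Foxa2-/- lungs, against 5.88, 6.52 and 6.23 in controls, a difference of -0.07 (SE 0.27). The 2 probe sets of Fcgr1 thus disagreed, and with their mean the difference was 0.42.

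Fcgr2b, the inhibitory IgG receptor, had the largest difference of the 9 genes. It read 11.21, 12.55 and 12.07 in Foxa2-/- lungs, against 10.07, 10.39 and 10.03 in controls. All 3 Foxa2-/- arrays were above the controls, and Foxa2-/- replicate 1 was more than a log2 unit below replicate 2. The difference was 1.78 (SE 0.33), 3.44-fold with a 95% interval of 1.98 to 5.99, and 1.92 within the shared title number. Its error was wider than that of Fcgr3, and Fcgr2b passed the threshold over all genes only in some of the alternatives, for example without Foxa2-/- replicate 1 (2.15) and not with all arrays. Of its 5 probe sets, 4 gave differences of 1.78, 1.78, 1.84 and 1.95. The 5th was in the dimmest 25% of probe sets on every array and read 3.04, 3.15 and 3.11 in Foxa2-/- lungs, against 3.24, 3.20 and 3.27 in controls. The extracellular parts of Fcgr2b and Fcgr3 are close in sequence, and probe positions were not used here, so signal shared between the pair cannot be told apart.

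**Figure D2:**
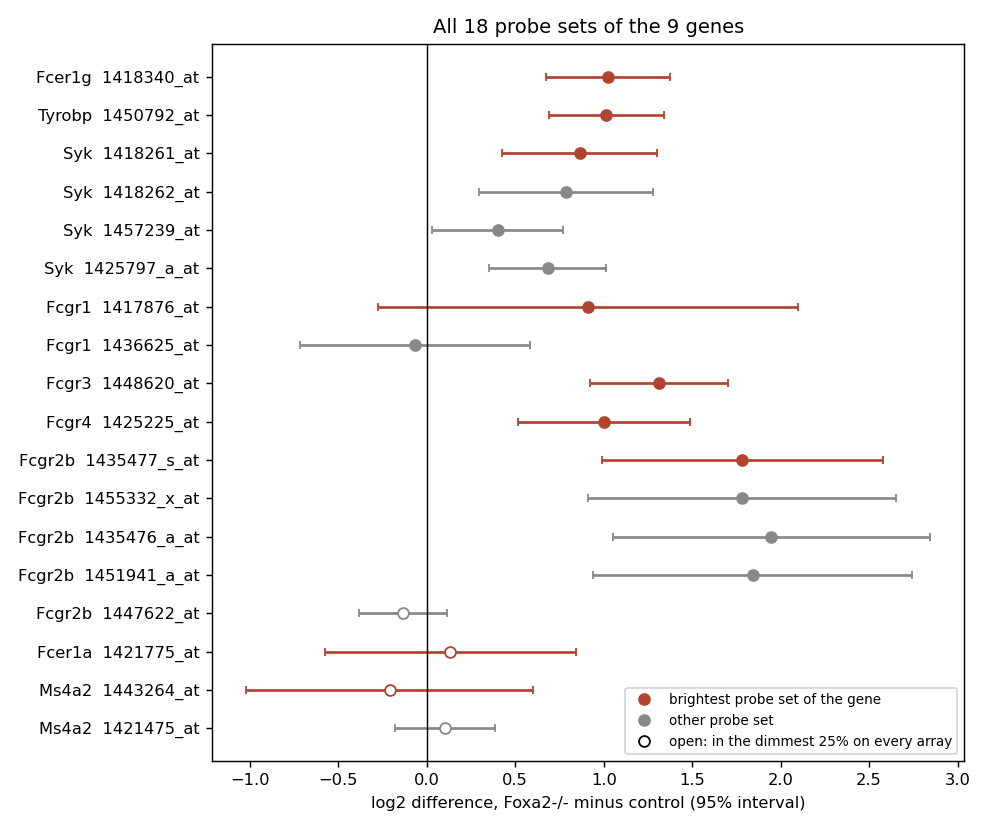
Log2 difference, Foxa2-/- minus control, of each of the 18 probe sets of the 9 genes (horizontal axis), with 95% intervals from the fit over all probe sets; red points are the brightest probe set of a gene, grey points the others, and open points lie in the dimmest 25% on every array. The 4 brighter Fcgr2b probe sets lie between 1.78 and 1.95, the 4 Syk probe sets between 0.40 and 0.86, and the dim Fcgr2b, Fcer1a and Ms4a2 probe sets near 0.

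At the level of probe sets, 12 of the 18 had every Foxa2-/- array above all controls, where 9.73% of all 45037 did. One Fcgr2b probe set had every Foxa2-/- array below, and 5 overlapped. None of the 18 passed limma's adjusted threshold in the fit over probe sets (12 had an unadjusted p under 0.05), in which 0.0799% of all probe sets passed as higher in Foxa2-/- lungs.

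The IgE receptor chains that belong to mast cells and basophils did not follow Fcer1g. Fcer1a read 3.60, 3.31 and 4.36 in Foxa2-/- lungs, against 3.66, 3.91 and 3.30 in controls. Ms4a2 read 3.98, 5.12 and 5.03 in Foxa2-/- lungs, against 5.27, 4.93 and 4.57 in controls. For both genes the groups overlapped, and each value lay below the 25th percentile of its array (5.69 to 5.78), a range without detection calls here. The differences were 0.13 (SE 0.30, 95% interval -0.58 to 0.85) for Fcer1a and -0.21 (SE 0.34, interval -1.03 to 0.61) for Ms4a2, and the second Ms4a2 probe set gave 0.10 (SE 0.12). Each sign turned with at least 1 array left out, and no fold is given at this level. Of the 13 mast cell and basophil markers measured, Mcpt2 alone rose in the fit over all genes and 3 had every Foxa2-/- array above the controls, with a median difference of 0.11. Their summed linear signal was 11072 to 13670 in Foxa2-/- lungs, against 12953 to 14765 in controls, and it included Kit and Gata2, which other lung cells express as well. Cpa3, the mast cell carboxypeptidase, read 6.56, 7.23 and 6.89 in Foxa2-/- lungs, against 6.89, 6.82 and 7.01 in controls. The 3 markers with every Foxa2-/- array above the controls were Mcpt2 (difference 1.51), Cma1 (0.65) and Mcpt4 (0.60). Mcpt2 lay below the 25th percentile on 4 of the 6 arrays, and Mcpt4 on 2. Of the 13 differences, 10 were positive.

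The balance of activating over inhibitory IgG receptors was described within each array, with the control mean set to 0. Fcgr4 minus Fcgr2b was -0.44, -1.40 and -0.51 in Foxa2-/- lungs, against 0.12, -0.25 and 0.14 in controls, so every Foxa2-/- lung lay below every control. Fcgr3 minus Fcgr2b was -0.01, -0.83 and -0.58 in Foxa2-/- lungs, against 0.17, -0.37 and 0.20 in controls, and the groups overlapped. Fcgr1 minus Fcgr2b was -1.14, -1.26 and -0.22 in Foxa2-/- lungs, against 0.06, -0.80 and 0.74 in controls, and overlapped too. All 3 means were lower in Foxa2-/- lungs, at -0.78 for Fcgr4, -0.47 for Fcgr3 and -0.87 for Fcgr1, while control replicate 2 was the lowest control in each. Each contrast subtracts Fcgr2b, which had the largest difference of the 9 genes (1.78). The shared sign follows from that and is not 3 separate results.

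**Figure D3:**
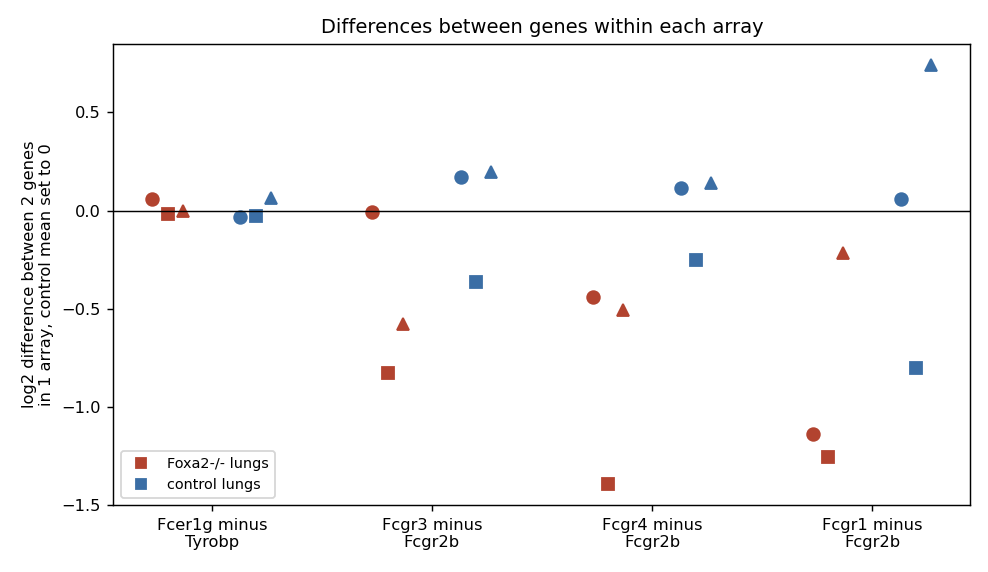
Difference in log2 signal between pairs of the genes within each array, with the mean of the controls set to 0 (vertical axis); Foxa2-/- lungs are red and stand left of control lungs, which are blue, and circles, squares and triangles are replicates 1, 2 and 3. Fcer1g minus Tyrobp stays within 0.062 of 0 in all 6 arrays, while Fcgr4 minus Fcgr2b is below every control in all 3 Foxa2-/- lungs.

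Markers of the cells that carry these receptors were set beside the genes. In whole-lung RNA, more cells of a type and more RNA per cell cannot be told apart. Of 14 macrophage markers, 2 rose in the fit over all genes (Cd68 and Itgax) and 11 had every Foxa2-/- array above the controls, with a median difference of 0.94. Their summed linear signal was 50415 to 74385 in Foxa2-/- lungs, against 35279 to 38167 in controls. Monocyte markers (7 measured, median difference 0.57), neutrophil markers (10, median 0.21), NK cell markers (9, median 1.09) and B cell markers (7, median 0.32) had summed signals that overlapped between the groups, and none of them passed. Of 7 eosinophil markers 3 rose, with a median of 1.94 and a summed signal of 4489 to 10039 in Foxa2-/- lungs, against 1047 to 1732 in controls. None of 10 dendritic cell markers passed (median 0.73), though their summed signal was 53685 to 54813 in Foxa2-/- lungs, against 24915 to 44577 in controls. That linear sum is led by the brightest of them, Cd74, H2-Aa and H2-Ab1, which are genes of class II antigen presentation. Among the dimmer markers Zbtb46 (difference -0.03), Ccr7 (0.16), Xcr1 (0.43), Flt3 (0.82) and Itgae (1.23) overlapped between the groups. Cd209a (1.20) and H2-Eb1 (2.18) did not. None of 8 T cell markers passed either (median 1.04), and their summed signals overlapped. The 12 markers of lung epithelium, endothelium and stroma had a median of -0.06 and none passed.

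Relative to the mean log2 signal of the 14 macrophage markers in the same array, with controls centred on 0, Fcgr2b was 0.51, 1.17 and 0.88 in Foxa2-/- lungs, against -0.06, 0.19 and -0.13 in controls. Fcgr3 was 0.51, 0.34 and 0.30 in Foxa2-/- lungs, against 0.11, -0.18 and 0.06 in controls. These 2 genes were the ones with every Foxa2-/- lung above all controls on that scale. They also had the 2 largest differences of the 9 genes. The 14 markers themselves differed by 0.07 (Mertk) to 1.94 (Itgax). Itgax, Siglecf (1.58), Cd68 (1.45) and Adgre1 (1.40) differed by more than Fcgr3 (1.31), and the remaining markers by less. Fcer1g, Tyrobp, Fcgr4, Fcgr1 and Syk overlapped between the groups on it, with Foxa2-/- means of 0.10, 0.08, 0.07, -0.02 and -0.07. The dim Fcer1a overlapped too, and the dim Ms4a2 was lower in every Foxa2-/- lung than in every control (mean -1.14). Before the subtraction Ms4a2 overlapped between the groups (difference -0.21). Its separation on this scale follows from the marker mean subtracted, which was higher in every Foxa2-/- lung. The marker mean itself was 0.54, 1.22 and 1.04 in Foxa2-/- lungs, against -0.04, 0.04 and 0.00 in controls, lowest in Foxa2-/- replicate 1 as for Fcgr2b. The part of macrophage markers in the differences of the 9 genes was not tested beyond these values.

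The rest of the pathway was taken from 7 lists that hold 101 other genes, of which 87 were measured. Of these, 6 rose and none fell in the fit over all genes (limma adjusted p under 0.05), and 81 did not pass. Every Foxa2-/- array was above the controls in 43 of the 87 and below in 1 (Fyn), and the median difference was 0.71, beside 0.01 over all genes. Over all genes 10.8% had every Foxa2-/- array above the controls, 8.73% had every one below, and 0.473% passed as higher. The lists were chosen with earlier results of these data known, so these counts are a description. None of the 87 passed without any 1 array other than Foxa2-/- replicate 1, and 12 passed without that one; 37 to 43 had an unadjusted p under 0.05 when none passed.

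A list of 19 genes held receptors that use these adaptors or carry an ITAM of their own. It also held Hcst, an adaptor without an ITAM. Of the 19, 2 rose and none fell, with a median difference of 0.73. Trem2, a lipid-sensing receptor that signals through Tyrobp, read 8.74, 8.92 and 8.50 in Foxa2-/- lungs, against 7.06, 6.95 and 7.22 in controls, a rise of 1.64 (SE 0.15, limma adjusted p = 0.0198). Clec4n, the fungal lectin Dectin-2, which signals through Fcer1g, read 10.98, 11.18 and 10.82 in Foxa2-/- lungs, against 9.83, 9.79 and 9.70 in controls, a rise of 1.22 (SE 0.13, limma adjusted p = 0.0267). The groups were apart in both. Clec7a (Dectin-1) differed by 1.52 and Cd300lb by 1.60 with the groups apart, though neither passed, while Clec4d differed by 0.11 and Trem3 by -0.16 with the groups overlapping. These 4 were named after their values were seen.

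Of 5 Src family kinases measured, Fgr, a kinase of myeloid cells, was the 1 that rose. It read 9.71, 9.93 and 9.47 in Foxa2-/- lungs, against 8.57, 8.31 and 8.03 in controls, a rise of 1.40 (SE 0.19, limma adjusted p = 0.0429). Fyn, Src, Blk and Yes1 differed by -0.20, 0.06, 0.12 and -0.53 and did not pass. None of 25 genes downstream of Syk passed in limma's adjusted test (14 had an unadjusted p under 0.05), although 15 had every Foxa2-/- array above the controls and 24 of the 25 differences were positive, with a median of 0.80. Those with the smallest p were the adaptor Lat2 (0.80, SE 0.13, limma adjusted p = 0.0724) and Malt1, a protease of the pathway to NF-kappaB (1.26, SE 0.24, limma adjusted p = 0.0928).

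Of 18 genes that limit ITAM signals, 2 rose, none fell and 16 did not pass. Every Foxa2-/- array was above the controls in 13 of them and the groups overlapped in 5, and the median difference was 0.65. Siglece, an ITIM-bearing sialic acid receptor, read 9.47, 10.04 and 9.99 in Foxa2-/- lungs, against 8.02, 8.01 and 8.30 in controls, a rise of 1.72 (SE 0.19, limma adjusted p = 0.0325). Pirb, an ITIM-bearing receptor for class I antigens, read 9.72, 10.26 and 10.03 in Foxa2-/- lungs, against 8.54, 8.66 and 8.74 in controls, a rise of 1.35 (SE 0.16, limma adjusted p = 0.036). Both stood apart from the controls in all 3 Foxa2-/- lungs. The phosphatase Ptpn6 differed by 0.79 (limma adjusted p = 0.0795), and Inpp5d, the phosphatase that Fcgr2b recruits, by 0.58 with the groups overlapping; neither passed, and both were named after their values were seen.

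Other immunoglobulin receptors and the antibody chains themselves complete the pathway. None of 9 other Fc receptors passed in limma's adjusted test (2 had an unadjusted p under 0.05); the closest were Fcrls (1.43, SE 0.23, limma adjusted p = 0.0642) and Pigr, which carries IgA across epithelium (1.63, SE 0.50, limma adjusted p = 0.245). Ighm, the IgM heavy chain, was the 1 of 4 antibody genes measured that rose. It read 11.95, 12.35 and 11.07 in Foxa2-/- lungs, against 9.57, 9.38 and 8.90 in controls, a rise of 2.51 (SE 0.35, limma adjusted p = 0.0484). The IgG heavy chain Ighg3 read 6.93, 6.65 and 6.44 in Foxa2-/- lungs, against 5.92, 5.78 and 6.09 in controls. The groups were apart, with a difference of 0.74 (SE 0.16, limma adjusted p = 0.128), and it did not pass. The heavy chains of IgE and of the other IgG classes were not analysed here, so the ligands of the receptors described above are mostly unmeasured. None of 7 ITAM chains and kinases of T and B cell receptors passed in limma, adjusted or unadjusted, and the groups overlapped in all 7; the smallest p were those of Cd3e (0.85, SE 0.43, limma adjusted p = 0.494) and Zap70 (0.59, SE 0.32, limma adjusted p = 0.528).

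**Figure D4:**
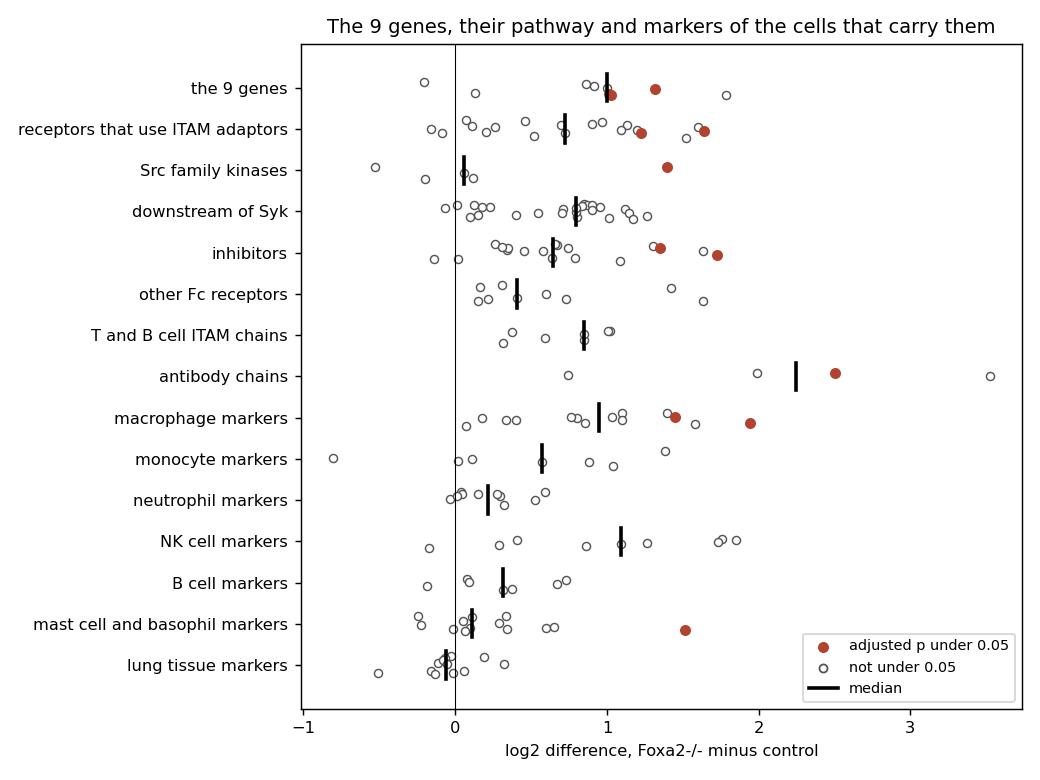
Log2 difference, Foxa2-/- minus control (horizontal axis), of every measured gene in each list drawn. Red points are genes under an adjusted p of 0.05 in the fit over all genes, and open points are the others. A black bar marks the median of each list. The 9 genes have a median of 1.00, the list of receptors that use ITAM adaptors (with Hcst) 0.73, genes downstream of Syk 0.80 and inhibitors 0.65. Marker medians are 1.09 for NK cells, 0.94 for macrophages, 0.57 for monocytes, 0.32 for B cells and 0.21 for neutrophils. They are 0.11 for mast cells and basophils and -0.06 for lung tissue. Eosinophil, T cell and dendritic cell markers, with medians of 1.94, 1.04 and 0.73, are not drawn.

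Fcgr2b, Fcgr4 and Fcgr3 follow each other along mouse chromosome 1, with Fcer1g a few genes away (RefSeq, GRCm38.p6, used for gene order). Of 11 measured genes between or beside these 4, none had its groups apart in either direction, and their differences ran from -0.61 (Pcp4l1) to 0.60 (Fcrla). Over all genes, 10.8% had every Foxa2-/- array above the controls and 8.73% below, so a count of 0 among 11 is not set against the 4 genes, which were picked with this contrast known.

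Promoter windows of RefSeq (GRCm38.p6) were found for 8 of the 9 genes. They were searched on both strands for the letters GAGGAA, the core bound by the myeloid Ets factor Spi1, which 28.3% of all 32851 promoter windows hold. It was present in 6 of the 10 windows listed for these genes, which belong to Fcgr1, Fcgr3 (both of its windows, which overlap), Fcgr4, Syk and Fcer1a. Of the 2 Syk windows, the one at the start listed first holds no match. The stretches around it are shown on the strand that carries the core, in capitals, to compare their flanks: Fcgr1 at chr3:96294007-96294036 (plus strand), Fcgr3 at chr1:171059392-171059421 (plus), Fcgr4 at chr1:171018892-171018921 (minus), Syk at chr13:52596861-52596890 (plus) and Fcer1a at chr1:173227428-173227457 (minus).
Fcgr1: aagattagaaaaGAGGAAggaagttgccat
Fcgr3: gaactacaaaaaGAGGAAggaaatggactc
Fcgr4: ttgactagaagaGAGGAAgtaaatagcctt
Syk: tgctgacactttGAGGAAaagccacttccc
Fcer1a: tgtcaccttaagGAGGAAtccacatgactc

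The 3 activating IgG receptor genes share the longer run AGAGGAAG, which overlaps the core, was chosen after the sequences were read and is held by 4.55% of all windows. In all 3 the core lies on the strand opposite to the gene. It begins 22 bases before the start of Fcgr4 and 55 bases before that of Fcgr1, and 6 or 15 bases before the 2 starts listed for Fcgr3. The windows of Fcgr2b, the inhibitory receptor, and of Fcer1g hold no match to these letters, although both differed between the groups. The full windows of Fcgr3 (chr1:171059354-171059653, minus strand), Fcgr4 (chr1:171018676-171018975, plus) and Fcgr2b (chr1:170976022-170976321, minus) are printed as an activating pair and the inhibitory neighbour, 5′ to 3′ along the gene, with the reverse complement of the core in capitals. A match is a description of the letters and shows no binding.
Fcgr3 promoter: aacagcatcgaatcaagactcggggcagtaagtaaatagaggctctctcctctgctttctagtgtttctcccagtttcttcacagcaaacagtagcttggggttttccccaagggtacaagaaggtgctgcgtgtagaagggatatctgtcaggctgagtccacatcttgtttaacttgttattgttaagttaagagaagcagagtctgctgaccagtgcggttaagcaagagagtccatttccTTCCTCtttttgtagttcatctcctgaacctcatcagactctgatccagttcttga
Fcgr4 promoter: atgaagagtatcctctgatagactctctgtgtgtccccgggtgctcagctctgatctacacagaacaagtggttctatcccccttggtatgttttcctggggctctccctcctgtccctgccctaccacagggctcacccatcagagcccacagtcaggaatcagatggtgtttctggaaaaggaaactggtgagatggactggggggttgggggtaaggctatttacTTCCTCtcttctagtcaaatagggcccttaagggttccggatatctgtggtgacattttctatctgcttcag
Fcgr2b promoter: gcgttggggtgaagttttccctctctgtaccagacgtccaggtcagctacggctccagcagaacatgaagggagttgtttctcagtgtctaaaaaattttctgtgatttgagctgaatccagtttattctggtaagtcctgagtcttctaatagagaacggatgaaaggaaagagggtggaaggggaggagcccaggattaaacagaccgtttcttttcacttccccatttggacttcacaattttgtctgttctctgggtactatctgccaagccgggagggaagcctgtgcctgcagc

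Likeness across the 6 arrays was measured by Pearson's r against every other gene, as a description, since arrays of a group share the group difference and few points allow many high values. The 5 genes most like Fcer1g were Slc5a1 (r = 0.999), Tyrobp (0.997), Alox5ap (0.997), Slc26a4 (0.996) and Slpi (0.994), and 11 genes in all had r above 0.99. Those most like Ms4a2, which is dim, were Sytl2 (0.993), F8 (0.99), Acsm3 (0.987), Prpf3 (0.986) and Hspd1 (0.986). Between the members, r of Fcer1g was 0.965 with Fcgr3, 0.896 with Fcgr2b, 0.884 with Fcgr4, 0.804 with Syk and 0.681 with Fcgr1. It was 0.02 with Fcer1a and -0.28 with Ms4a2. These values include the group difference. Over deviations from the group means, r of Fcer1g was 0.45 with Fcgr3, 0.17 with Fcgr2b, 0.05 with Fcgr4 and 0.54 with Fcgr1. On that measure it was -0.69 with Syk, -0.60 with Fcer1a and -0.19 with Ms4a2.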

How the data were processed

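Whole-lung RNA of 6 mouse samples was hybridised to Affymetrix MOE430 V2 arrays. The deposited values are log2 probe set signals made by the authors with RMA, per the submitters' processing notes; the RMA version was not given in the sources used here. RMA brings arrays to a common distribution, so a shift of most genes would not be seen, and compresses differences near the floor. Replicates were numbered in accession order, and p-values measure the spread between samples, which may be partly technical. Of 45101 probe sets, 64 controls were left out. Symbols came from the platform annotation, and each of 18193 genes was represented by its brightest probe set with 1 symbol. Groups were compared with limma 3.58.1 (R 4.3.3), all 6 arrays, no covariate, with Benjamini-Hochberg adjustment over all genes or all probe sets. On simulated data the fit recovered 53.7% of genes changed by 1 log2 unit, 97% at 2 units and 98.5% at 3. It also called 8 unchanged genes. Alternatives changed the normalization, the filter on dim probe sets, the variance model, the probe set choice, the threshold or the title number, or left out each array.

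The 9 genes, the 7 pathway lists and 10 marker lists were chosen with earlier results of these data known. Named pathway genes are, per list, up to 4 that passed, or else the 2 with the smallest p; the genes most like Fcer1g and Ms4a2 are the 5 with the highest r; Foxa2 is the label check. Any other gene named with values was picked once its values were known.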

Additional observations from a re-analysis of the deposited data

How the results depend on the processing

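Differences of Fcer1g, Tyrobp, Fcgr2b, Fcgr3, Fcgr4, Syk and Fcgr1 were positive under all 16 alternatives, while Fcer1a was positive in 11 of 14 and Ms4a2 in 3 of 14. Fcgr1 ran from 0.42 to 1.99, Fcgr2b from 1.44 to 2.15 and Fcer1g from 0.95 to 1.17. The median over the 9 genes moved by less than the spread between arrays under each alternative. Counts of limma calls did change (all genes, then the 9 genes, then pathway genes; 104, 3 and 6 as reported). They were 48, 0 (6 unadjusted) and 2 with cyclic loess, 607, 5 and 23 with array weights, 399, 5 and 14 with the first title number as a random effect, and 0, 0 and 0 with it as a fixed term, which leaves the contrast to the 3 arrays that share it and where 2121, 7 and 27 had an unadjusted p under 0.05. With the most variable probe set of each gene 61 genes and 1 of the 9 (Fcgr3) passed. At an adjusted p under 0.1 the calls were 320 genes and 12 pathway genes. Leaving out 1 array in turn gave 0 to 249 genes, 0 to 4 of the 9 and 0 to 12 pathway genes. The 0 of the 9 was found without each control and without Foxa2-/- replicates 2 and 3, with 6 of the 9 at an unadjusted p under 0.05 each time. Without Foxa2-/- replicate 1, Fcgr2b, Fcgr3, Fcgr4 and Tyrobp passed and Fcer1g did not. The causes were not tested. No paired analysis was possible because no replicate number in the labels ties 1 control to 1 Foxa2-/- sample; the title number shared by 3 arrays gave the partly matched fits above. The number of arrays limits precision, and dim probe sets have no detection call.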

Other observations

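Several markers of NK cells, which carry Fcgr3, Fcer1g and Tyrobp, varied between lungs of the same group. Gzma, a granule protease, read 9.04, 12.86 and 11.41 in Foxa2-/- lungs, against 9.44, 12.42 and 6.18 in controls. Nkg7, a granule membrane protein, read 8.70, 11.63 and 10.16 in Foxa2-/- lungs, against 8.86, 11.17 and 6.66 in controls, and Klrd1, a receptor of NK cells, 7.14, 10.01 and 8.96, against 8.48, 10.01 and 6.83 in controls. In all 3 genes control replicate 2 lay above Foxa2-/- replicates 1 and 3, and control replicate 3 was the lowest of the 6 arrays. Fcer1g and Tyrobp had another order, with control replicate 3 the highest control. The 3 genes were picked after their values were seen. Klre1 and Klra8 shared their order, but other NK cell markers did not. Prf1 read 9.41, 9.43 and 9.60 in Foxa2-/- lungs, against 9.68, 9.60 and 9.68 in controls. In Ncr1 and Klrg1 control replicate 2 lay below Foxa2-/- replicate 3, and in Gzmb and Eomes control replicate 3 was not the lowest array.

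The heavy chain of IgA, Igha, read 7.80, 11.12 and 11.04 in Foxa2-/- lungs, against 7.81, 11.39 and 4.80 in controls. Replicate 1 of both groups was alike, and control replicate 2 was the highest array. Jchain, which joins IgA and IgM chains, read 10.27, 11.76 and 10.14 in Foxa2-/- lungs, against 6.45, 9.17 and 5.99 in controls, and the groups did not overlap (3.52, SE 0.88, limma adjusted p = 0.169).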
